A study of Mus musculus with 6 samples.

Results

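Pericytes and vascular smooth muscle cells, together called mural cells, wrap the endothelial tubes of the spinal cord's vessels. The 10 mural cell genes described here were taken by name, 7 usually used as pericyte markers (Pdgfrb, Rgs5, Higd1b, Kcnj8, Abcc9, Vtn and Notch3) and 3 as smooth muscle markers (Acta2, Tagln and Myh11). They are 10 of 54532 genes in the deposited tables, and each matched 1 Ensembl gene. They were measured by RNA sequencing in cervical spinal cords of 6 mice of the C57BL/6 strain, with 1 library made from each animal. In the imiquimod group, 3 mice had 50 mg of a 5% imiquimod cream, which activates Toll-like receptor 7 and gives a psoriasis-like skin inflammation, spread on shaved neck skin daily for 2 days. In the vehicle group, 3 mice had the same amount of cream without imiquimod. No altered allele is named for either group, and the sex and age of the mice are not given in the labels used here. The cream was put on skin, so the cord was not itself the treated tissue.

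Pericytes sit within the basement membrane of capillaries and are kept there by platelet-derived growth factor B from endothelium, which acts on the receptor encoded by Pdgfrb. They help to form the blood-spinal cord barrier and to set capillary flow, in part through an ATP-sensitive potassium channel whose pore is encoded by Kcnj8 and whose regulatory subunit is encoded by Abcc9. Smooth muscle cells of arterioles contract through smooth muscle actin (Acta2) and myosin (Myh11), and the transcription of these genes depends on serum response factor bound to CArG boxes. In a bulk library, fewer cells of a type and less RNA per cell cannot be told apart.

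In the imiquimod cords, Rgs5 was lower, and Higd1b and Kcnj8 were higher. Rgs5 stood at 34.0 ± 4.69 FPKM with vehicle and at 18.3 ± 5.72 FPKM with imiquimod, Higd1b at 4.51 ± 0.0895 against 7.71 ± 2.01 FPKM, and Kcnj8 at 2.87 ± 0.165 against 4.65 ± 1.11 FPKM (SD, n = 3 each). FPKM counts sequenced fragments per kilobase of a gene's exons after scaling for how deeply the library was sequenced. The other 6 genes tested, Pdgfrb, Abcc9, Vtn, Notch3, Acta2 and Myh11, did not pass. Tagln was too low to be tested. So 2 of 9 tested members were called higher, beside 8.74% of all genes tested, and 1 was called lower, beside 5.34%. Calls went in both directions, and the median log2 change was 0.07 over the 9 tested members and -0.01 over all 16513 genes tested.

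The test was limma on log2(FPKM + 0.1), with p adjusted by the Benjamini-Hochberg method over all genes tested and a threshold of 0.05. A gene entered with a mean of at least 0.5 FPKM in either group. In all, 2326 genes were called (14.1%), 1444 of them higher and 882 lower. The members and the gene lists below were chosen with earlier results of these data known. Counts within them, set beside these shares, are descriptions and not tests of a list. Removing a fitted trend of gene length and GC from every library turned this split to 1272 higher (7.71%) and 1571 lower (9.53%), 17.2% together, and left 1 member called higher and 1 lower. Vehicle libraries held 18174411 to 20672881 fragments and imiquimod libraries 21242413 to 23200996, so every imiquimod library was the deeper (exact permutation test, two-sided, p = 0.1, which is the least that 3 against 3 can give). Libraries also differed in RNA of marker genes of tissue at the edge of the cord, for a reason that was not tested. Prx, the periaxin gene of myelinating Schwann cells in nerve roots, was at 7.08, 5.61 and 9.45 FPKM in vehicle libraries, and at 4.26, 0.289 and 8.36 FPKM in imiquimod replicates 1 to 3. The summed level of 10 meningeal fibroblast markers was 45.6 to 83.1 FPKM in vehicle libraries, and 52.8, 18.3 and 128 FPKM in imiquimod replicates 1 to 3. Results without imiquimod replicate 2 or 3 are given below for the called members and for Pdgfrb, Vtn, Acta2 and Myh11. They are not given for every other gene whose values differed in these libraries.

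Upstream sequences are shown for Rgs5 and Kcnj8, which changed in opposite directions, and for Abcc9, the channel partner of Kcnj8 that did not rise with it. The sequences come from the RefSeq promoter table (GRCm38.p6), which held 6 of the 10 members. Each is the part of the 250 bases before the RefSeq start that lies outside exons of the gene, read 5′ to 3′ on the gene's strand. Rgs5 lies on the plus strand at chr1:169655251-169655500, Kcnj8 on the minus strand at chr6:142571615-142571864 and Abcc9 on the minus strand at chr6:142702316-142702524. Capitals mark a motif match.
Rgs5: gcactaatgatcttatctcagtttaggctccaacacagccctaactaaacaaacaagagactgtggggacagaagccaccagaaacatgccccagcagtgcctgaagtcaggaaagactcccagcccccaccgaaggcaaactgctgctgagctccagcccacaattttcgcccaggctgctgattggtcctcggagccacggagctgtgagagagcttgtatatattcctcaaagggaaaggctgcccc
Kcnj8: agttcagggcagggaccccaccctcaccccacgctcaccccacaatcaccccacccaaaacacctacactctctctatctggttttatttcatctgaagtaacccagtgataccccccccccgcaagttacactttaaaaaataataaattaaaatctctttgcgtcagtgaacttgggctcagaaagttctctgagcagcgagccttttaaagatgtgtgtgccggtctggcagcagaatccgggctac
Abcc9: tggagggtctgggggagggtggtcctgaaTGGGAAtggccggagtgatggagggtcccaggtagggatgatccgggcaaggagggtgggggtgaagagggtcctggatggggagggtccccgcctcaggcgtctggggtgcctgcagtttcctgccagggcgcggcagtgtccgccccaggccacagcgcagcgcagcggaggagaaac

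Both strands of the 250 bases were searched for 5 motifs. The interferon-stimulated response element, searched as GAAA followed after any pair of bases by another GAAA, had no match in the 6 member promoters and one in 2.98% of all 32851 promoters. The gamma-activated site, TTCNNNGAA, had none in the 6 either, against 7.02% of all. TGGGAA, the motif of the Notch effector RBPJ, occurred once each in Abcc9, Vtn and Acta2, and in 21.6% of all promoters. The strict CArG box had no match in the members and one in 1.47% of promoters. With any base allowed at 1 of the central A or T positions, a relaxed form chosen after the strict form had no match, it was found in 8.59% of promoters and in 1 member. That member was Acta2, with CCCTATATGG at chr19:34255448-34255457 and CCTTGTTTGG at chr19:34255398-34255407 on the minus strand. The second match shares bases with the TGGGAA there. Both matches lie inside the annotated span of Acta2, chr19:34241090-34255590, because the RefSeq start lies within that span. Of the 250 bases searched, 33 lie before it. These are matches of letters only.

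Rgs5 encodes a regulator of G protein signalling that shortens the response of contractile receptors, and it is among the most used pericyte markers. The gene spans chr1:169655501-169695813, and none of its exon sequence is shared with another annotated gene. Its levels were 36.1, 28.6 and 37.3 FPKM in vehicle replicates 1 to 3 and 17.7, 24.3 and 12.9 FPKM in imiquimod replicates 1 to 3. Every imiquimod library lay below every vehicle library, and imiquimod replicate 3 was lowest. The log2 change was -0.93 ± 0.22 (SE, limma adjusted p = 0.0377). The value rests on 1372 to 3319 fragments per library, so counting error is small beside the spread between mice. Leaving out any one vehicle library, imiquimod replicate 1 or imiquimod replicate 3 ended the call (adjusted p from 0.0665 to 0.128), while the log2 change stayed between -1.16 and -0.70 over all 17 alternatives. Without imiquimod replicate 2 the adjusted p was 0.00947. With no filter on low values, when more genes are tested, it was 0.0726.

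Higd1b encodes a small protein of the hypoxia-inducible domain family found in mitochondria, and single-cell catalogues list it as a pericyte gene. It lies at chr11:102835849-102838040 with 847 bases of exon, the shortest of the 10. Vehicle libraries stood at 4.54, 4.41 and 4.59 FPKM and imiquimod libraries at 9.50, 8.08 and 5.53 FPKM. The groups did not overlap, and imiquimod replicate 3, the lowest of its group, was the one nearest to vehicle. The log2 change was 0.72 ± 0.18 (limma adjusted p = 0.0438). It rests on few fragments: the highest vehicle library had 76 fragments (95% exact Poisson interval 59.9 to 95.1) and the lowest imiquimod library had 110 (90.4 to 133), intervals that cover counting error only. Without any one library other than imiquimod replicate 3, the call ended (0.0823 to 0.129). Without imiquimod replicate 3 the log2 change was 0.94 and the adjusted p 0.00836. The call also ended with no filter on low values (0.0828), with quantile normalization (0.0588) and with voom on fragments (0.0698).

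Kcnj8, which encodes the pore Kir6.1 of the vascular ATP-sensitive potassium channel, lies at chr6:142564837-142571614. It was at 3.04, 2.71 and 2.87 FPKM in vehicle libraries and 5.88, 4.35 and 3.73 FPKM in imiquimod libraries. Imiquimod replicate 1 was highest and no library crossed into the other group. The log2 change was 0.65 ± 0.16 (limma adjusted p = 0.0418). Leaving out a vehicle library or imiquimod replicate 2 ended this call (0.0585 to 0.126), as did no filter on low values (0.0798), quantile normalization (0.0612) and removal of the length and GC trend (0.0698). Across the alternatives the log2 change stayed between 0.48 and 0.80.

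Abcc9, which encodes the regulatory subunit SUR2 of the same channel, lies beside Kcnj8 on the same strand at chr6:142587862-142702315, with 16247 bases between them. It went the other way in value, with 2.50, 2.03 and 2.38 FPKM in vehicle and 1.52, 1.89 and 1.95 FPKM in imiquimod libraries. The groups did not overlap, but the gap between vehicle replicate 2 and imiquimod replicate 3 was small. The log2 change of -0.35 ± 0.14 did not pass (limma adjusted p = 0.142). The FPKM of Kcnj8 over that of Abcc9, a ratio formed after the values were seen and so not tested, was 1.22, 1.34 and 1.20 in vehicle libraries. In imiquimod libraries it was 3.86, 2.30 and 1.91. The paralogues of the pair, Kcnj11 and Abcc8, which build the channel of neurons and endocrine cells, had log2 changes of -0.02 ± 0.06 and -0.08 ± 0.11 and neither passed (adjusted p = 0.866 and 0.689, limma). Kcnj11 was at 11.2, 11.0 and 11.0 FPKM in vehicle libraries, and at 10.4, 11.4 and 10.9 FPKM with imiquimod.

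**Figure D1:**
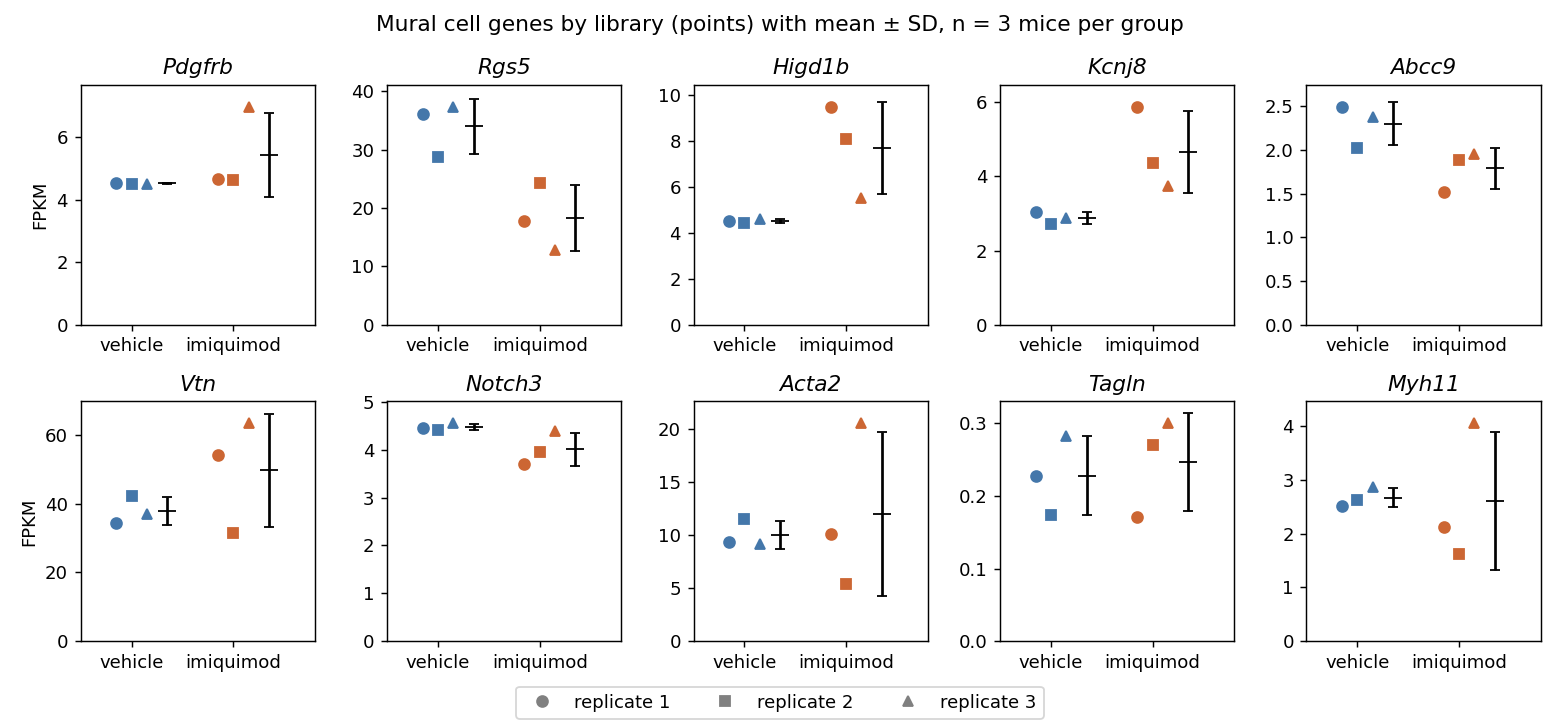
FPKM (y axis, from 0) of the 10 mural cell genes in each library, with circles, squares and triangles for replicates 1, 2 and 3 and bars for mean ± SD of 3 mice. Rgs5 is lower and Higd1b and Kcnj8 are higher in all imiquimod libraries, while Acta2 and Myh11 range widely among imiquimod mice.

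Pdgfrb, the receptor for platelet-derived growth factor B, is carried by pericytes, smooth muscle cells and fibroblasts. It lies at chr18:61045150-61085061. Vehicle libraries were almost equal, at 4.54, 4.51 and 4.52 FPKM, and imiquimod libraries were at 4.67, 4.64 and 6.98 FPKM. All imiquimod libraries were above all vehicle libraries, 2 of them by little and imiquimod replicate 3 by more. The log2 change of 0.23 ± 0.16 did not pass (limma adjusted p = 0.370), and it was 0.04 without imiquimod replicate 3. The level of Rgs5 over that of Pdgfrb, again a ratio formed after the values were seen, was 7.94, 6.34 and 8.26 in vehicle libraries and 3.79, 5.23 and 1.84 in imiquimod libraries.

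The growth factors that act on this receptor and its sister showed no call. Of 5 PDGF ligands and receptors listed beside Pdgfrb, 0 were higher and 0 lower by limma (1 had an unadjusted p under 0.05). That one was Pdgfd, a ligand of the Pdgfrb receptor, at 10.4, 10.9 and 10.1 FPKM in vehicle and 7.37, 9.09 and 6.36 FPKM in imiquimod libraries. Its log2 change was -0.47 ± 0.13 (adjusted p = 0.052, limma), and it passed in 6 of the 17 alternatives. Pdgfa, which acts on the sister receptor, was 15.3 ± 0.824 against 16.1 ± 1.35 FPKM, and Pdgfb, the endothelial ligand that holds pericytes, had a log2 change of 0.18 (adjusted p = 0.269, limma).

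Notch3, the receptor that keeps mural cells differentiated, lies at chr17:32120820-32166852. It was at 4.45, 4.42 and 4.55 FPKM in vehicle and 3.70, 3.94 and 4.38 FPKM in imiquimod libraries. The groups did not overlap, and imiquimod replicate 3 came closest to vehicle. The log2 change of -0.16 ± 0.09 did not pass (limma adjusted p = 0.259). Of its exon sequence, 6.03% is shared with the antisense gene Gm17276, and the strand setting of the counting is not given in the sources used here.

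Of 14 other genes of the Notch pathway, 4 were called higher and 0 lower, beside 8.74% and 5.34% of all genes tested. Their median log2 change was 0.20. Notch4, the endothelial receptor, rose from 2.49 ± 0.4 to 4.29 ± 0.437 FPKM (0.77 ± 0.14, limma adjusted p = 0.0154). The ligand Jag2 rose by 0.44 ± 0.07, the target and transcriptional repressor Hes1 by 0.40 ± 0.09 and the feedback inhibitor Nrarp by 0.69 ± 0.16. Hey1, Hey2 and Heyl, targets that mural cells use, did not pass, at log2 changes of 0.02, 0.03 and 0.14. Neither did Jag1, the ligand through which endothelium and smooth muscle engage Notch3, at 0.10. The call of Jag2 ended without vehicle replicate 1 (0.0505), that of Notch4 without vehicle replicate 3 or either of imiquimod replicates 1 and 3 (0.0509 to 0.0533), that of Hes1 without any one library other than imiquimod replicate 2 (0.0689 to 0.117) and that of Nrarp without any one other than imiquimod replicate 3 (0.0701 to 0.113). Hes1 was also lost with no filter on low values (0.0554), voom (0.0558) and voom with quality weights (0.0697). Nrarp was lost with no filter (0.0721), quantile normalization (0.0641) and the length and GC trend removed (0.0756).

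Vtn encodes vitronectin, an adhesive protein of plasma and matrix that brain pericytes secrete. It lies at chr11:78499091-78502324 and had the highest mean of the 10 genes in both groups, although Rgs5 was above it in vehicle replicates 1 and 3. Vehicle libraries were at 34.3, 42.1 and 37.1 FPKM and imiquimod libraries at 54.0, 31.6 and 63.3 FPKM. Imiquimod replicates 1 and 3 stood above all vehicle libraries and imiquimod replicate 2 below all of them. The log2 change of 0.34 ± 0.24 did not pass (limma adjusted p = 0.397). It was 0.63 and passed without imiquimod replicate 2 (0.0165), the library with the lowest summed fibroblast markers and the lowest Prx, whose part in the result was not tested.

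Among 7 receptors of vitronectin and partners in fibrinolysis, 4 were higher and 0 lower, beside 8.74% and 5.34% of all genes. Plaur, the urokinase receptor, which also binds vitronectin, was at 0.648, 1.71 and 0.567 FPKM in vehicle and 6.71, 3.88 and 7.18 FPKM in imiquimod libraries (2.59 ± 0.41, limma adjusted p = 0.010). Plau and Plat, the urokinase and tissue type plasminogen activators, rose by 0.83 ± 0.21 and 0.47 ± 0.11, and the integrin subunit Itgb5 by 0.31 ± 0.06. The integrin partners Itgav and Itgb3 did not pass, with log2 changes of -0.15 and -0.21. The call of Plaur held without any one library. Those of Plat and Plau ended without any one library other than imiquimod replicate 2, and that of Itgb5 without imiquimod replicate 3 or either of vehicle replicates 1 and 2 (adjusted p from 0.0506 to 0.136 over these 3 genes). With no filter on low values Plat (0.0618) and Plau (0.0839) did not pass. Itgb5 went to 0.15 and did not pass once the length and GC trend was taken out (0.182).

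**Figure D2:**
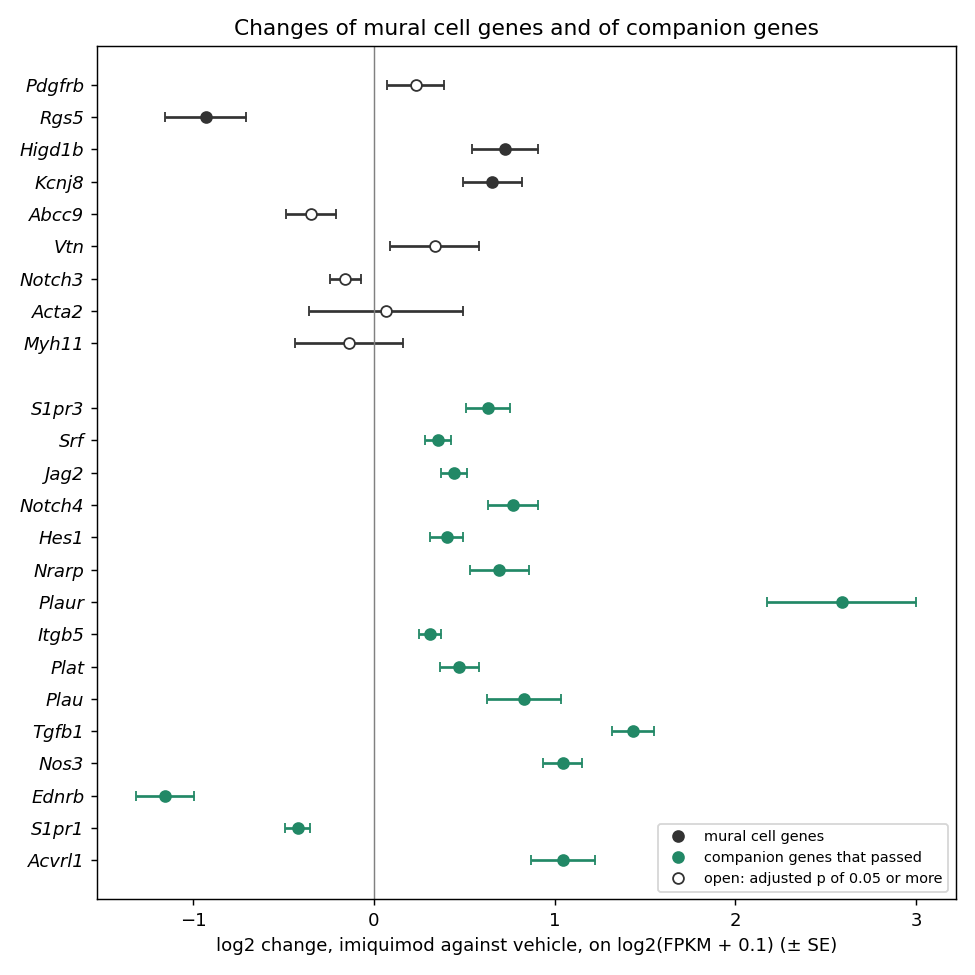
Log2 change ± SE of the 9 tested mural cell genes (black) and of the companion genes that passed (green), at most 5 a list, imiquimod against vehicle on log2(FPKM + 0.1), with open points where the adjusted p was 0.05 or more. Among the black points Rgs5 is at -0.93, Higd1b at 0.72 and Kcnj8 at 0.65, and the other 6 are open.

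Of 22 other genes used for pericytes, 20 were tested, and S1pr3 alone was higher, beside 8.74% of all genes (0.63 ± 0.12, limma adjusted p = 0.0189). S1pr3 encodes a receptor for sphingosine 1-phosphate on mural cells. It stood at 1.84, 2.13 and 2.35 FPKM in vehicle and 3.01, 3.31 and 3.60 FPKM in imiquimod libraries, and its call ended without imiquimod replicate 3 or either of vehicle replicates 1 and 2 (0.0602 to 0.0674). No gene of the list was lower. The proteoglycan gene Cspg4 (NG2), which oligodendrocyte precursors carry too, was at 1.94, 1.96 and 2.01 FPKM against 1.75, 2.19 and 1.96 FPKM. The pericyte genes Atp13a5, Ndufa4l2 and Cox4i2 had log2 changes of -0.08 ± 0.16, -0.37 ± 0.17 and 0.26 ± 0.17. The median over the 20 tested genes was 0.14.

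Acta2 encodes the actin of smooth muscle and lies at chr19:34241090-34255590. Its levels were 9.33, 11.5 and 9.19 FPKM in vehicle and 10.1, 5.42 and 20.5 FPKM in imiquimod libraries. Imiquimod replicate 2 was the lowest of the 6 and imiquimod replicate 3 the highest. The log2 change was 0.07 ± 0.43 (limma adjusted p = 0.934), and it was -0.42 without imiquimod replicate 3 and 0.53 without imiquimod replicate 2. Neither value passed.

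Myh11, the smooth muscle myosin heavy chain, lies at chr16:14194535-14291372 and ordered the imiquimod libraries in the same way. It was at 2.52, 2.63 and 2.87 FPKM in vehicle and 2.13, 1.62 and 4.05 FPKM in imiquimod libraries. The log2 change was -0.14 ± 0.30 (limma adjusted p = 0.790), with -0.50 without imiquimod replicate 3 and 0.13 without imiquimod replicate 2, neither past the threshold. The SD among imiquimod mice was 64.3% of the mean for Acta2 and 49.3% for Myh11, against 12.8% and 6.59% among vehicle mice.

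Tagln encodes transgelin, an actin-binding protein of smooth muscle that is usually abundant where Acta2 is. It was at 0.227, 0.174 and 0.283 FPKM in vehicle and 0.171, 0.270 and 0.30 FPKM in imiquimod libraries, from 6 to 14 fragments each. The level of Acta2 was 20.1 to 68.3 times that of Tagln, library by library. Of the exon sequence of Tagln, at chr9:45929619-45936058, 67.9% is shared with genes on the other strand, 62.4% with Gm48529 and 5.43% with Pcsk7. Whether reads in shared exons were dropped is not given in the sources used here, so the level of Tagln is uncertain. With no filter on low values its log2 change was 0.07 (limma adjusted p = 0.922).

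Of 21 other contractile genes, 17 were tested, and 0 were higher and 0 lower by limma, beside 8.74% and 5.34% of all genes. Of the 17, 6 had an unadjusted p under 0.05, beside 30.2% of all genes. With the length and GC trend removed 2 were called higher and 2 lower, beside 7.71% and 9.53% of all genes. Myl9, the regulatory light chain of smooth muscle myosin, was at 19.1, 19.3 and 18.3 FPKM in vehicle and 14, 8.66 and 17.3 FPKM in imiquimod libraries (-0.56 ± 0.23, adjusted p = 0.156, limma). All imiquimod libraries lay below vehicle, and imiquimod replicate 2 was lowest again. Within the imiquimod group, 12 of the 21 genes, among them Cnn1 (calponin), Smtn (smoothelin) and Lmod1 (leiomodin), were lowest in replicate 2 and highest in replicate 3. The other 9 were not: replicate 3 was lowest for 3 genes (Sncg, Pcp4l1 and Casq2) and replicate 1 for 3 (Flna, Cald1 and Kcnmb1). Mylk and Flna, the myosin light chain kinase and filamin A genes, were above vehicle in all imiquimod libraries and did not pass either (0.40 and 0.61, limma adjusted p = 0.103 for both). The members of the list with the highest levels were Pcp4l1 and Sncg, which neurons express too. Their vehicle means were 233 and 88.5 FPKM, most of the list's summed level of 390 to 409 FPKM in vehicle libraries. Their log2 changes of -0.22 ± 0.08 and -0.49 ± 0.14 did not pass. The part of smooth muscle in these values was not tested. Of 6 genes of serum response factor and its partners, Srf itself rose from 8.96 ± 0.32 to 11.5 ± 0.752 FPKM (0.36 ± 0.07, limma adjusted p = 0.0222). Srf no longer passed when a vehicle library or imiquimod replicate 3 was left out (0.0649 to 0.0894), or with the length and GC trend removed (0.137). Its smooth muscle coactivator Myocd was under 0.1 FPKM in all 6 libraries and was not tested.

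All 10 meningeal fibroblast markers were lowest in imiquimod replicate 2 and highest in imiquimod replicate 3 within the imiquimod group, as were Acta2, Myh11, Vtn and Pdgfrb. Dcn, the matrix proteoglycan decorin, was at 7.10, 10.7 and 9.30 FPKM in vehicle and 14.5, 4.01 and 41.5 FPKM in imiquimod libraries. Ogn, the proteoglycan osteoglycin, was at 7.38, 9.79 and 10.8 FPKM against 5.76, 0.558 and 13.8 FPKM. Of the 10 fibroblast markers, 9 were tested and 0 passed by limma (0 at an unadjusted p under 0.05), and none was listed at 0 in a library. The part of meningeal tissue in the values of Acta2, Myh11, Vtn and Pdgfrb was not tested. Rgs5, Higd1b and Kcnj8 did not follow this order: imiquimod replicate 3 was the lowest of its group for all 3. Replicate 3 was also lowest for 6 of 8 oligodendrocyte lineage, 4 of 6 neuron and 5 of 8 microglia and macrophage markers. It was lowest for 4 of 8 astrocyte and 5 of 15 endothelial markers. The part of edge tissue in the values of Rgs5, Higd1b and Kcnj8 was not tested either. Skeletal muscle is another source of contractile genes. The summed level of 9 of its markers was 2.70 to 3.66 FPKM in vehicle and 2.71 to 3.50 FPKM in imiquimod libraries. Among them Myh4 was listed at 0 to 0.02 FPKM. Mylpf was at 1.28, 1.52 and 1.06 FPKM in vehicle and 1.78, 1.09 and 1.28 FPKM in imiquimod libraries. The part of skeletal muscle in the values of contractile genes was not tested.

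**Figure D3:**
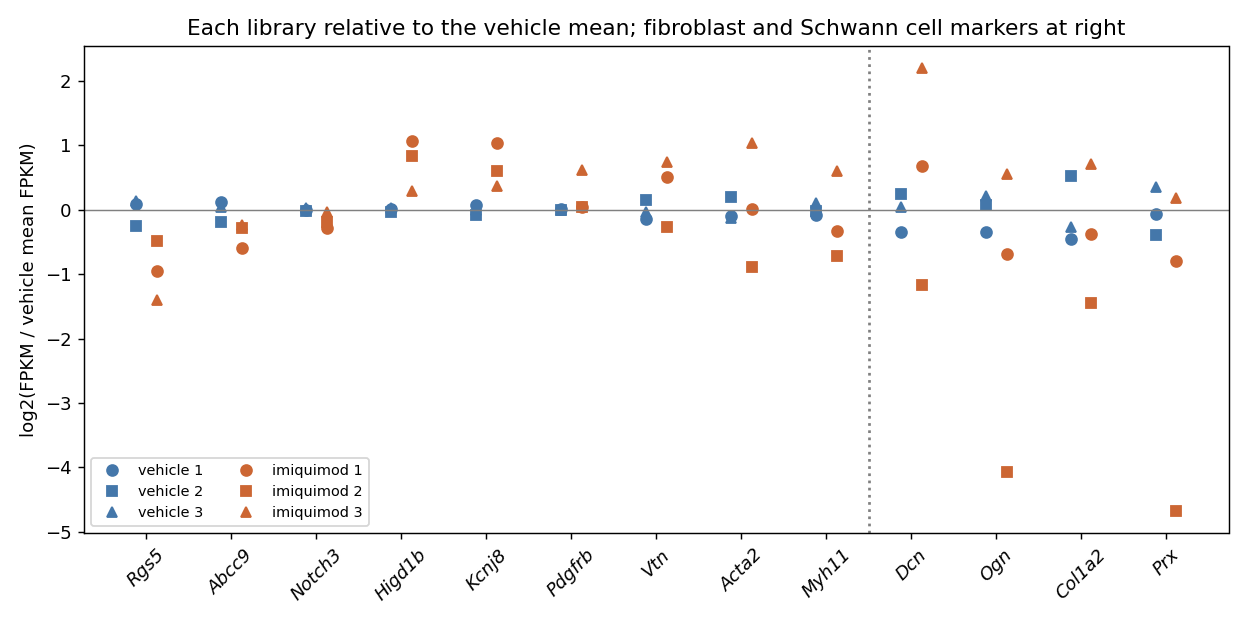
Log2 of each library's FPKM over the vehicle mean for 9 mural cell genes and, right of the dotted line, for the fibroblast markers Dcn, Ogn and Col1a2 and the Schwann cell marker Prx. Imiquimod replicate 2 (square) is lowest and imiquimod replicate 3 (triangle) highest of the imiquimod group for Pdgfrb, Vtn, Acta2, Myh11 and the 4 genes at the right. Rgs5, Abcc9, Notch3, Higd1b and Kcnj8 do not have this order.

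Endothelial genes come from the cells that mural cells wrap. Of 15 endothelial markers, 9 were higher and 2 lower, beside 8.74% and 5.34% of all genes, with a median log2 change of 0.66. Pecam1, the junction protein CD31, was at 5.91 ± 0.424 against 14.4 ± 1.12 FPKM, and Cldn5, the tight junction claudin, at 41.7 ± 1.78 against 92.2 ± 9.62 FPKM. Itm2a, a membrane protein, fell by 1.27 ± 0.13. Of 17 genes by which endothelium and mural cells signal to each other, 5 were higher and 2 lower, beside the same 8.74% and 5.34%. Tgfb1 (1.43 ± 0.12, limma adjusted p = 0.00115), the endothelial nitric oxide synthase Nos3 (1.05 ± 0.11) and the TGF-beta family receptor Acvrl1 (1.05 ± 0.18) rose. Which cells of the cord the RNA of Tgfb1 came from was not tested. The endothelin receptor gene Ednrb, which astrocytes carry in large amount, had a log2 change of -1.16 ± 0.16, and S1pr1, the sphingosine 1-phosphate receptor of endothelium and astrocytes, one of -0.42 ± 0.07, a call that ended without vehicle replicate 1 (0.057). Ednra, the endothelin receptor of smooth muscle, was -0.21 and did not pass, and Angpt1, the pericyte ligand of Tek, was 0.29 and did not pass. Whether mural genes differed from endothelial genes in their change was not tested. Among lists for other cells, 1 of 8 astrocyte markers was higher and 3 were lower, 2 of 8 microglia and macrophage markers were higher and 2 lower, 2 of 6 neuron markers were lower and 1 of 8 oligodendrocyte lineage markers was lower, again beside 8.74% higher and 5.34% lower over all genes. With 1 library left out at a time, the lower calls ran from 2 to 4 for astrocytes, 0 to 3 for microglia and macrophages, 0 to 2 for neurons and 0 to 1 for the oligodendrocyte lineage. None of 4 Schwann cell markers, 6 red blood cell genes or 3 tested skeletal muscle markers passed by limma (1, 4 and 0 at an unadjusted p under 0.05).

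By level in the vehicle cords, Vtn and Rgs5 were highest, at 37.9 and 34.0 FPKM, and their ranges overlapped. Acta2 followed alone at 9.99 FPKM. Pdgfrb, Higd1b and Notch3 lay together at 4.52, 4.51 and 4.47 FPKM with overlapping ranges, then Kcnj8 and Myh11 at 2.87 and 2.67 FPKM, also overlapping, then Abcc9 at 2.30 FPKM and Tagln. In the imiquimod cords Vtn, at 49.6 FPKM, no longer overlapped with Rgs5, at 18.3 FPKM, whose range overlapped that of Acta2. Each gene from Rgs5 down to Myh11 overlapped the next in that group, while Abcc9 did not overlap Tagln. The mean of Higd1b stood above that of Pdgfrb. In all, 6 of the 9 tested members had groups that did not overlap, beside 37.9% of all genes tested; 3 were higher, beside 19.8%, and 3 lower, beside 18%. All 6 are pericyte markers. At an unadjusted p under 0.05 there were 4 members, beside 30.2% of all genes.

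The mean log2 level of the 7 pericyte genes was 2.77 to 2.85 in vehicle and 2.86 to 2.95 in imiquimod libraries. The groups did not overlap, but the mean joins genes called in opposite directions and is used here only to find genes of like pattern. That of the 3 smooth muscle genes ran from 1.01 to 1.13 and from 0.61 to 1.70. Among 7949 other genes with a mean of at least 5 FPKM, those whose log2 values followed the pericyte mean most closely over the 6 libraries were Trmt112, Ciapin1, Krtcap2, Usp21 and Ctxn2, with Pearson r from 0.986 to 0.992. Those closest to the smooth muscle mean were Errfi1, Prelp, Brd3, Cbx7 and Sfswap, with r from 0.957 to 0.982. Prelp, a matrix proteoglycan, was at 6.24, 7.49 and 6.76 FPKM in vehicle and 5.89, 4.13 and 11.9 FPKM in imiquimod libraries. None of these 10 genes passed between the groups by limma. With only 6 libraries, such r values describe likeness and no more.

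**Figure D4:**
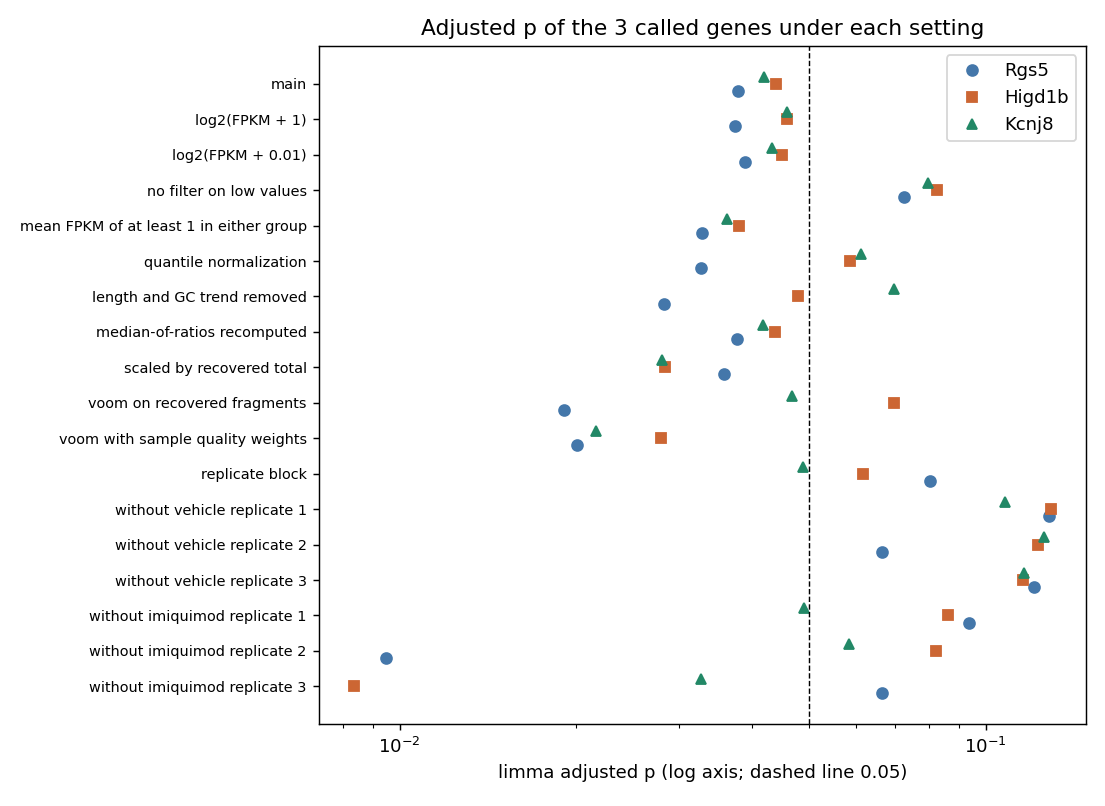
Limma adjusted p (log axis) of Rgs5, Higd1b and Kcnj8 under the reported setting (top line) and 17 alternatives, with a dashed line at 0.05. Rgs5 and Kcnj8 lie left of the line in 10 alternatives and Higd1b in 8, and points to the right cluster where a vehicle library is left out.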

How the data were processed

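The deposited files give 1 FPKM value per gene and library (fragments per kilobase of exon, scaled by the authors). Per the submitters' processing notes, the build was mm10 and the tools included DESeq2 1.16.1, featureCounts 1.5.0-p3 and HISAT2 2.0.5, with no role stated for any. The annotation release, strand setting and treatment of multiply mapped reads were not given in the sources used here. Symbols matched 54409 and GENCODE M21 exon lengths 54495 of 54532 identifiers. Multiplied by exon length, FPKM moved in equal steps within a library, so fragments per gene could be recovered (97.4% to 97.6% of values under 1000 fragments came out whole within 0.05). Step sizes followed median-of-ratios size factors (spread 0.00894%), so no further scaling was applied. No 2 libraries were identical.

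The main test was limma 3.58.1 (R 4.3.3) with its variance trend, on log2(FPKM + 0.1), a scale that understates changes of low genes, over genes with a mean of at least 0.5 FPKM in either group. Alternatives were other pseudocounts, filters and scalings, voom on fragments, a replicate block and each library left out; scaling by recovered totals was added after seeing the data. On simulated data (3 sets of this comparison, 16503 genes, 200 changed, dispersion 0.01) the fit recovered 79.3% of 2-fold and 90.3% of 4-fold changes, with 6.26% false calls. The simulated dispersion was the same for every gene and group. These rates need not hold for members that varied more among imiquimod mice, such as Acta2 (SD 64.3% of the mean, against 12.8% with vehicle). Other steps used SciPy 1.17.1, pandas 2.3.3 and NumPy 2.4.6 under Python 3.11.15, with figures by matplotlib 3.10.9. The members and lists were chosen with earlier results of these data known. Named genes were all 10 members, of each companion list up to 5 that passed with the smallest p (or the 2 most abundant), of each cell type list up to 3, and 5 genes most like each mean; other genes named were chosen after their values were seen. Marker lists of astrocytes, microglia and macrophages, neurons, oligodendrocytes, Schwann cells and red blood cells were run as well. Some genes of these lists are not reported here.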

Additional observations from a re-analysis of the deposited data

How the results depend on the processing

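Over 17 alternatives the log2 changes of Rgs5, Higd1b and Kcnj8 kept their direction, but their calls did not all hold. With no filter on low values, which tests more genes, the changes were the same (-0.93, 0.72 and 0.65) and 0 members were called higher and 0 lower. Over all 31740 genes then tested, 1080 were higher and 508 lower. With quantile normalization Higd1b (0.66) and Kcnj8 (0.59) no longer passed, so 0 members were higher, beside 1335 of 16513 genes. Removing the length and GC trend ended the call of Kcnj8 (0.50) and voom on fragments that of Higd1b (0.72), leaving 1 higher in each. Over all genes, 1272 of 16493 and 1503 of 16503 were higher in these settings. Beyond the filter and the left-out libraries, the causes were not tested. Leaving out 1 library at a time, the log2 change ran from -1.16 to -0.70 for Rgs5, 0.56 to 0.94 for Higd1b, 0.48 to 0.80 for Kcnj8, 0.13 to 0.63 for Vtn, -0.42 to 0.53 for Acta2 and -0.50 to 0.13 for Myh11. Members called higher then ran from 0 to 2 and lower from 0 to 1, and over all genes from 660 to 1690 and from 187 to 1296. With an arm of 2 mice the fit has fewer degrees of freedom. Acta2 turned to -0.067 with the length and GC trend removed and to -0.16 with voom and quality weights, none of these past the threshold. Among other genes that did not pass, Pdgfa turned to -0.086 and Mylpf, a skeletal muscle gene, to -0.010 with the length and GC trend removed; Mylpf was -0.037 and Kcnj11 0.0025 with quality weights, and Kcnj11 0.030 with scaling by recovered totals, chosen after seeing the data. Left-out libraries moved Kcnj11 between -0.051 and 0.014 and Mylpf between -0.093 and 0.23. Genes called lower numbered 508 with no filter and 1571 with the length and GC trend removed. Contractile genes had 2 higher with that trend removed and 2 with quality weights; 2 were lower with quantile normalization, 2 with the trend removed, 1 with voom and 2 with quality weights. Serum response factor genes had 0 higher with the trend removed. PDGF genes had 1 lower with a minimum of 1 FPKM, quantile normalization, trend removal, voom or quality weights. With no filter, 2 Notch and 2 vitronectin partner genes were higher. With 1 library left out, calls ran from 0 to 3 higher among other pericyte genes, 0 to 2 higher and 0 to 1 lower among contractile genes, 0 to 1 higher for serum response factor, 0 to 1 lower for PDGF, 1 to 3 higher for Notch, 1 to 4 higher for vitronectin partners and 1 to 2 lower for endothelial signals. Few fragments limit Higd1b and Tagln most.

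Replicate numbers gave no sign of pairing the mice. Deviations from the group means correlated at 0.0186, -0.0970 and -0.0331 for same-numbered libraries, and the others ran from -0.102 to 0.134. With 3 libraries a group, these values depend on each other and cannot exclude a pairing. With the replicate block, 894 genes were higher and 436 lower, with 1 member higher and 0 lower; Rgs5 stayed at -0.93 and Higd1b at 0.72, each past no threshold. The block gave 1 contractile gene higher, 0 of serum response factor, 2 of Notch and 1 of vitronectin partners. No library correlated best with its own number.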
